A study of Paeonia ostii with 18 samples.

Results

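The comparison set flower buds of tree peony after 15 d of chilling against buds given no chilling (0 d). It rested on 3 arrays of 15 d and 3 arrays of 0 d, 6 of the 18 arrays of the series, taken by their labelled chilling time alone. The plants were 4-year-old potted Paeonia ostii 'Feng Dan Bai', kept in a cold house at 0 to 4 °C. The other arrays held buds chilled for 6, 12, 18 and 24 d, 3 arrays for each time. The study regarded buds chilled for less than 18 d as endo-dormant, which takes in both 15 d and 0 d. It also placed buds of 12 d and 15 d in a middle phase on the way to release. Moved to a greenhouse, buds of about 12 to 15 d burst in part. Each replicate was a pool of 3 buds from each of 3 plants, so differences between single plants were not measured. No buds were held unchilled for 15 d, so chilling and elapsed time cannot be told apart. RNA was labelled with 1 dye (Cy3) and hybridised to a custom Agilent oligonucleotide array with 14957 probes designed on transcripts of chilled tree peony buds. A value below is a log2 signal after quantile normalization, in which a difference of 1 is a 2-fold change.

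Endo-dormancy is the state in which a bud does not grow because of signals within the bud itself, even where warmth and water would allow growth. Weeks of cold lift this block, after which the bud only waits for warmth. Gibberellin promotes bud growth by way of the receptor GID1, which binds the hormone and then the DELLA repressors and sends them to the proteasome. Stored starch and sugars feed the respiration and the wall building of a bud that prepares to grow.

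Between 88.5% and 93.7% of the probes were well above background on the 15 d arrays, against 82.2% to 92.3% on the 0 d arrays. No spot was saturated. The 3 arrays of 15 d lay on slide 2 and the 3 arrays of 0 d on slide 1, and no slide held both times, so slide and chilling cannot be told apart within this pair of groups. The 12 d arrays were the only time present on both of these slides. As markers of green shoot tissue, all 12 photosynthesis probes were well above background on each of the 6 arrays. Of the meristem and organ polarity genes, YAB3, REV and the floral activator AGL20 were well above background on every array of both times. KAN2 was so on 1 array of 15 d and 2 arrays of 0 d.

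In total, 1026 of 14956 probes differed between 15 d and 0 d at an adjusted p under 0.05 by limma with Benjamini-Hochberg adjustment over all probes, which is 6.86%. Of these, 559 probes (3.74%) were higher and 467 probes (3.12%) lower at 15 d, and 416 of the 1026 differed by at least 2-fold. Without normalization between arrays 198 probes were called, 65 higher and 133 lower. The median log2 fold change over all probes was 0.02 after quantile normalization, which sets all arrays to 1 distribution, and -0.02 without normalization between arrays. The called probes had a median absolute log2 fold change of 0.91 and a median standard error (SE) of 0.20. The count depended on single arrays. It fell to 402, 187 and 438 without replicate 1, 2 or 3 of 15 d and to 432 without replicate 1 of 0 d. With slide as a fixed block, 2 probes were called (0.0134% of those tested), CUST_1657 and CUST_5855, neither of which was among the 1026. The blocked estimate reached from one slide to the other only through the 12 d arrays, of which 1 lay on slide 2, and its median SE over the 1026 probes was 0.36. Of 92 called probes named below, 15 lost their call in 10 or more of 17 other settings, and their rises and falls are the least certain. They were HXK3, TPI, the aldehyde dehydrogenase CUST_2299, cICDH, MEE34, RPT4A, NRT2.3, SCL14, AT4G38840, ABC1, the actin depolymerizing factor, the SET domain protein, the bromodomain protein, the n-rich protein and the catalytic protein.

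**Figure D1:**
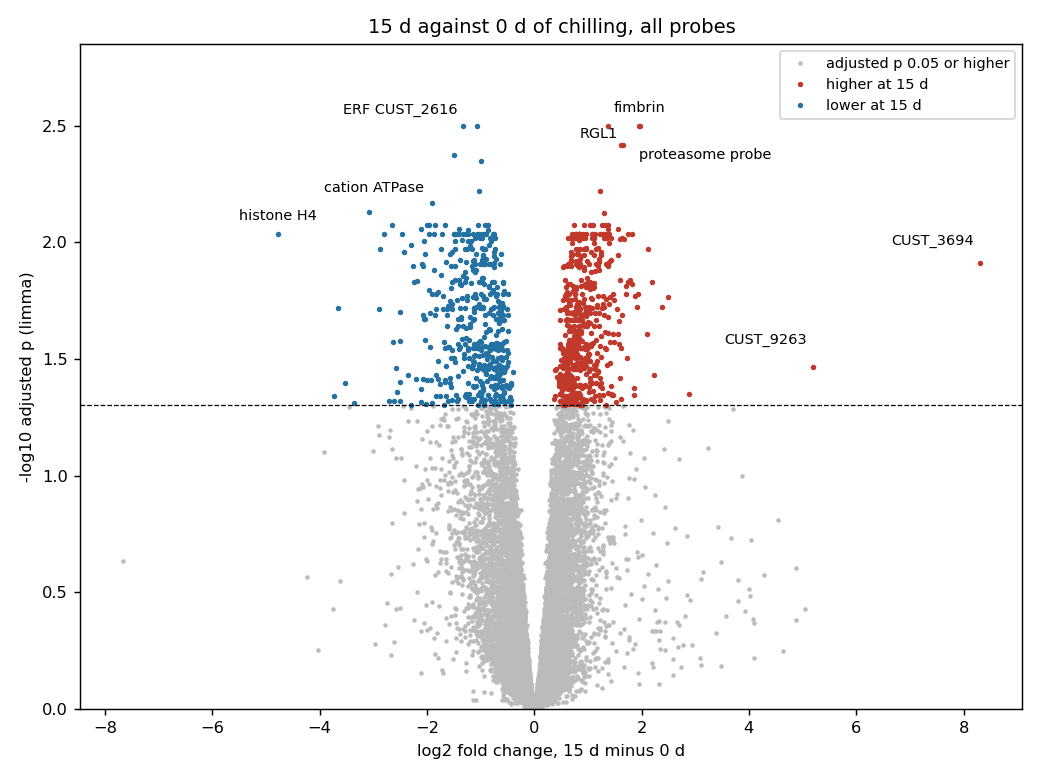
Each point is 1 probe, with the log2 fold change of 15 d minus 0 d on the horizontal axis and -log10 of the limma adjusted p on the vertical axis, and the dashed line marks an adjusted p of 0.05. The 559 probes in red were higher and the 467 in blue lower at 15 d, and most called probes lie within 2 log2 units of zero, with CUST_3694, CUST_9263 and histone H4 (CUST_67) far outside.

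Of 20 probes listed under glycolysis, the breakdown of sugar to pyruvate, 10 rose at 15 d, none fell and 10 did not pass the test. The rises included MAB1, LPD1, ALDH7B4 and the aldehyde dehydrogenase CUST_2299, whose steps lie outside that breakdown. The median log2 fold change of the list was 0.53, against 0.02 over all probes. The share of 50% called stands beside 6.86% over all probes, but most members of the lists came from a table of genes that the study had picked as changing on these same arrays, so the counts of lists are no independent evidence of a direction. In bulk buds, more RNA in each cell and more cells of a type cannot be told apart.

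Pyruvate kinase AT2G36580, which makes pyruvate in the last step of glycolysis, had 7.42, 7.92 and 7.17 at 15 d, against 5.19, 6.15 and 5.51 at 0 d. It rose by 1.88 ± 0.40 (log2 fold change ± SE, 3.69-fold, adjusted p = 0.017 by limma) and was well above background on 2 of 3 arrays of 0 d. LOS2, an enolase, had 9.03, 9.42 and 9.30 at 15 d, against 7.47, 7.86 and 8.43 at 0 d. For both enzymes every array of 15 d lay above every array of 0 d, and for LOS2 the third replicate of 0 d stood nearest to the chilled buds. LOS2 rose by 1.33 ± 0.22 (adjusted p = 0.0092). The aldolase AT3G52930, which splits fructose bisphosphate, had 16.88, 17.56 and 16.72 at 15 d, against 15.77, 15.80 and 16.38 at 0 d, and rose by 1.07 ± 0.21 (adjusted p = 0.013). With the normexp background correction the log2 fold change of AT2G36580 was 0.89 and that of AT3G52930 0.58, both still called.

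Other called probes of the list changed by less. Hexokinase HXK3 rose by 0.52 ± 0.14, triose phosphate isomerase TPI by 0.51 ± 0.14 and the plastid pyruvate kinase subunit PKP-ALPHA by 0.55 ± 0.12, with adjusted p between 0.019 and 0.045 by limma. The call was lost for HXK3 in 13 and for TPI in 11 of 17 other settings. A pair of probes described as phosphofructokinase (CUST_10254 and CUST_13227), which stood outside the list, rose by 0.60 ± 0.13 and 0.58 ± 0.15. ALDH7B4 and a probe described as aldehyde dehydrogenase (CUST_2299) rose by 0.75 ± 0.18 and 0.58 ± 0.16. ADH1, the alcohol dehydrogenase of fermentation, differed by -1.89 ± 0.74 and did not pass the test (adjusted p = 0.14). Its arrays read 4.55, 5.90 and 5.74 at 15 d, against 8.57, 7.27 and 6.00 at 0 d, with 2 arrays of each time well above background.

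Of 14 probes listed under pyruvate entry and the citrate cycle, 6 rose, none fell and 8 did not pass the test, with a list median of 0.42. Not all of them belong to the mitochondrial pathway, as the plastid enzyme LPD1 shows. The share of 42.9% called stands beside 6.86% over all probes. Of the 6, 2 (MAB1 and LPD1) were also counted under glycolysis. MAB1 (CUST_7515), a subunit of pyruvate dehydrogenase, had 15.71, 15.54 and 15.72 at 15 d, against 14.91, 14.89 and 15.02 at 0 d, and rose by 0.71 ± 0.13 (adjusted p = 0.0096). LPD1, the dihydrolipoyl dehydrogenase of the plastid enzyme, rose by 0.64 ± 0.16. FUM1, a fumarase of the citrate cycle, had 6.67, 6.89 and 6.91 at 15 d, against 5.46, 5.89 and 5.51 at 0 d, a rise of 1.20 ± 0.27 (adjusted p = 0.020). The groups did not overlap for either gene, and FUM1 was well above background on 2 of the 3 arrays of 0 d. With normexp FUM1 was at 0.60 and no longer called (adjusted p = 0.062 by limma).

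A pair of NADP-dependent isocitrate dehydrogenases rose as well, AT5G14590 by 0.91 ± 0.16 and cICDH by 0.53 ± 0.14. AT4G26910, a subunit of the 2-oxoglutarate dehydrogenase complex, rose by 0.68 ± 0.19. In oxidative phosphorylation 2 of 21 probes rose (9.52%, against 3.74% over all probes) and none fell, with a list median of 0.24. They were AT2G20360, a subunit of complex I, with 0.61 ± 0.12, and the inorganic pyrophosphatase AtPPa1 with 1.03 ± 0.28. In the pentose phosphate pathway 2 of 9 probes rose (22.2%, against 3.74% over all probes) and none fell, 1 of them being the aldolase AT3G52930 counted above.

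Of 16 probes for starch and sucrose metabolism 2 rose (12.5%, against 3.74% over all probes), none fell, and the median was -0.18. The rises were APL3 and CUST_9604, a probe also counted under glycolysis. APL3, a large subunit of the ADP-glucose pyrophosphorylase that commits sugar to starch, had 15.56, 15.90 and 15.87 at 15 d, against 14.81, 14.65 and 13.92 at 0 d, and rose by 1.32 ± 0.31 (adjusted p = 0.024). The plastid beta-amylase CT-BMY, which breaks starch down, had 14.76, 15.00 and 15.21 at 15 d, against 16.06, 16.31 and 16.38 at 0 d. The groups were apart, yet its difference of -1.26 ± 0.41 did not pass the test (adjusted p = 0.080). GPT2, which carries glucose 6-phosphate into plastids, read 6.00, 6.41 and 5.45 at 15 d, against 4.31, 4.82 and 3.00 at 0 d. It was not well above background on any array of 0 d. Its fitted log2 fold change of 1.91 ± 0.42 (adjusted p = 0.019 by limma) therefore rests on 0 d signals not well above background. Under normexp it was 0.61 and still called (adjusted p = 0.044 by limma). Measured against the lowest signal that counted as above background on the 0 d arrays, GPT2 was 1.92-fold higher at 15 d. That ratio itself was not tested. Such a ratio takes the mean of the brighter group. On each array of the dimmer group it uses the higher of that lowest signal and the probe's own. GPT2 was brighter than that lowest signal on some arrays of 0 d without being well above background, so the ratio is no strict lower limit.

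AMY2, an alpha-amylase, overlapped between 15 d and 0 d but was far lower at 6 d. It had 12.53, 14.01 and 13.21 at 15 d, against 14.39, 12.89 and 12.62 at 0 d, a difference of -0.05 ± 1.65 (adjusted p = 0.99). At 6 d its arrays read 5.94, 7.02 and 4.79, and at 12 d 6.90, 9.47 and 12.87, so all arrays of 6 d lay far below both groups.

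**Figure D2:**
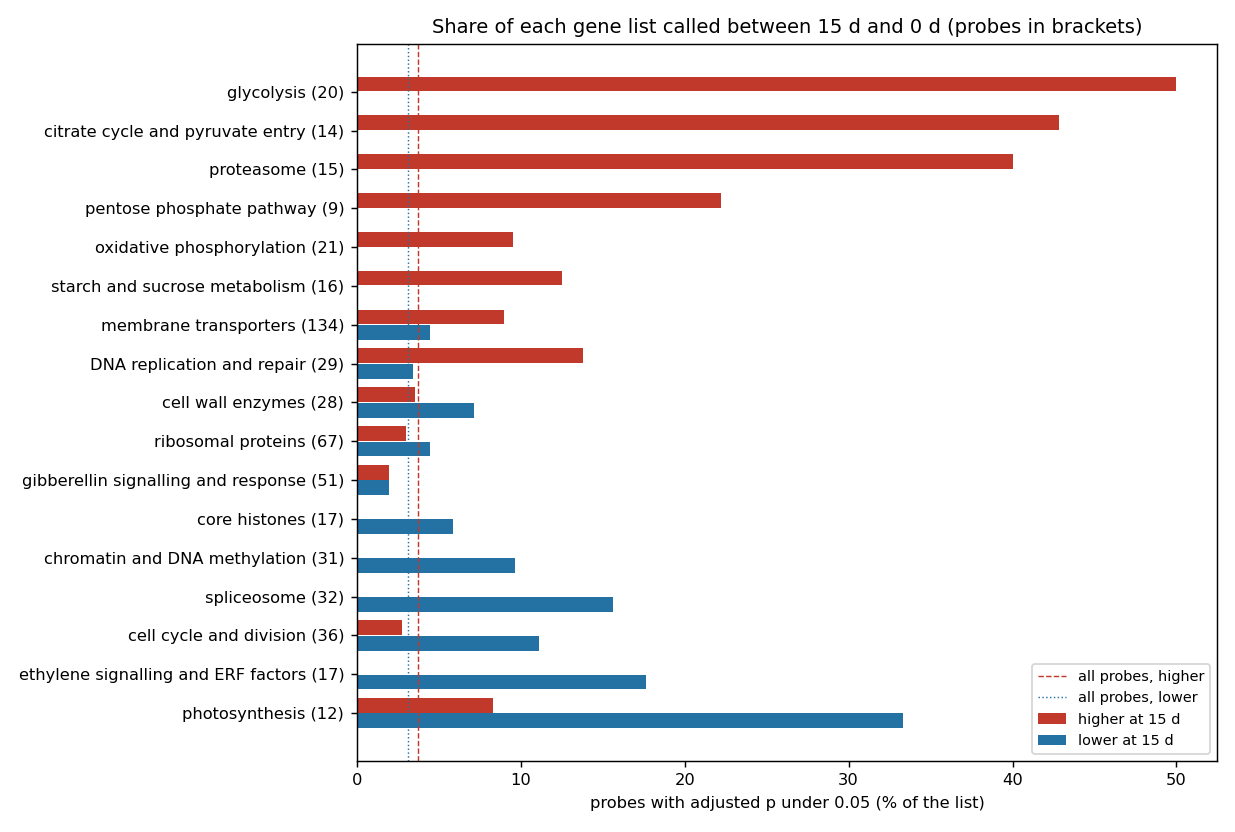
Bars give the share of each gene list, in %, that was higher (red) or lower (blue) at 15 d than at 0 d at an adjusted p under 0.05, with the number of probes in brackets and vertical lines at the shares over all probes, 3.74% and 3.12%. Glycolysis (10 of 20), the citrate cycle (6 of 14) and the proteasome (6 of 15) hold only rises, while photosynthesis has the largest share of falls among the lists shown, 4 of 12.

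Of 15 probes for the proteasome, the protease that degrades ubiquitin-tagged proteins, 6 rose (40%), none fell and 9 did not pass the test. Over all probes 3.74% rose. The median of the list was 0.57. A probe annotated as proteasome with no gene symbol (CUST_3293) had 13.09, 13.96 and 13.63 at 15 d, against 11.99, 11.70 and 12.04 at 0 d, and rose by 1.65 ± 0.21 (3.14-fold, adjusted p = 0.0038). RPT1A, an ATPase of the regulatory particle, had 13.82, 13.59 and 13.34 at 15 d, against 12.27, 12.87 and 12.64 at 0 d, and rose by 0.99 ± 0.20. In each case the groups did not overlap. The sister ATPases RPT6A and RPT4A rose by 0.85 ± 0.16 and 0.57 ± 0.16, the core subunit PAD2 by 0.68 ± 0.13 and MEE34 by 0.61 ± 0.17. With slide in the fit the median of the list was 0.18. Among 35 ubiquitin ligases and F-box proteins, which choose the targets, none rose and 1 fell (2.86%, against 3.12% over all probes).

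The gibberellin genes did not move as a group. Of 51 probes listed for gibberellin signalling and response, 1 rose, 1 fell and 49 did not pass the test (3.92% called against 6.86% over all probes), and the median was -0.06. The study had marked 22 of these 51 probes as differential between chilling times of the same series, not for 15 d against 0 d alone. It used p under 0.05 by ANOVA and named no adjustment over all probes. The 22 and the calls here are therefore not like counts. Every array of 15 d lay above every array of 0 d for 8 of the 51 probes (15.7%) and below for 12 (23.5%), against 16.5% and 15.6% of all probes. The probes called were both DELLA repressors, and they moved in opposite directions. A separate list of 10 GRAS and DELLA factors did not hold RGL1. In it none rose and 2 fell (20%, against 3.12% over all probes), with a median of -0.51. Every array of 15 d lay above every array of 0 d for 2 of these 10 probes and below for 6.

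RGL1, a DELLA repressor, had 13.50, 13.36 and 13.85 at 15 d, against 11.84, 12.01 and 12.03 at 0 d. It rose by 1.61 ± 0.21 (3.05-fold, adjusted p = 0.0038). RGA1, described as a DELLA protein of the GRAS family, had 8.91, 8.81 and 9.0 at 15 d, against 9.48, 9.54 and 9.97 at 0 d, and fell by 0.75 ± 0.15 on the log2 scale (adjusted p = 0.012). For both, the groups lay wholly apart. With slide as a block RGL1 differed by 1.68 ± 0.35 and RGA1 by -0.72 ± 0.26, neither past the threshold (adjusted p = 0.17 and 0.40). RGA2, another DELLA probe, had 14.79, 14.55 and 15.00 at 15 d, against 13.62, 13.75 and 14.21 at 0 d. Its difference of 0.92 ± 0.26 fell just short of the threshold (adjusted p = 0.0502). RGA2 was called with normexp, at 1.06 (adjusted p = 0.021 by limma). Probe sequences were not used here, so signal shared between these related genes was not tested.

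The receptors and the enzymes of the hormone did not pass the test. GID1A had 14.67, 14.85 and 14.62 at 15 d, against 15.79, 15.45 and 15.13 at 0 d, a difference of -0.74 ± 0.24 (adjusted p = 0.074). GID1B, the second receptor, had 6.92, 7.10 and 6.51 at 15 d, against 8.02, 7.90 and 7.36 at 0 d, a difference of -0.92 ± 0.37 (adjusted p = 0.14). All chilled arrays were below all unchilled ones for both receptors, without a call. GA20OX, which makes the precursors of active gibberellin, spread widely at 15 d, with 11.67, 13.24 and 13.80, against 12.32, 12.09 and 11.89 at 0 d, and its groups overlapped. GA2OX8, which inactivates gibberellin, differed by -0.54 ± 0.25 (adjusted p = 0.21).

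AGL20, the MADS-box floral activator that gibberellin induces in Arabidopsis, had 13.99, 13.77 and 13.69 at 15 d, against 10.91, 12.90 and 12.32 at 0 d. The chilled arrays were close to each other and above all arrays of 0 d, which lay far apart. The difference of 1.77 ± 0.53 did not pass the test (adjusted p = 0.061). AGL20 was called with normexp, at 1.83 (adjusted p = 0.042 by limma). CYC1, a cyclin followed by PCR in the study, had 8.03, 9.58 and 9.07 at 15 d, against 6.43, 6.49 and 8.42 at 0 d, and its difference of 1.78 ± 0.58 also missed the threshold (adjusted p = 0.080). TUB7, a beta-tubulin, differed by 0.92 ± 0.45 (adjusted p = 0.23). SCL14, a GRAS factor outside the gibberellin list, fell by 0.58 ± 0.14.

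**Figure D3:**
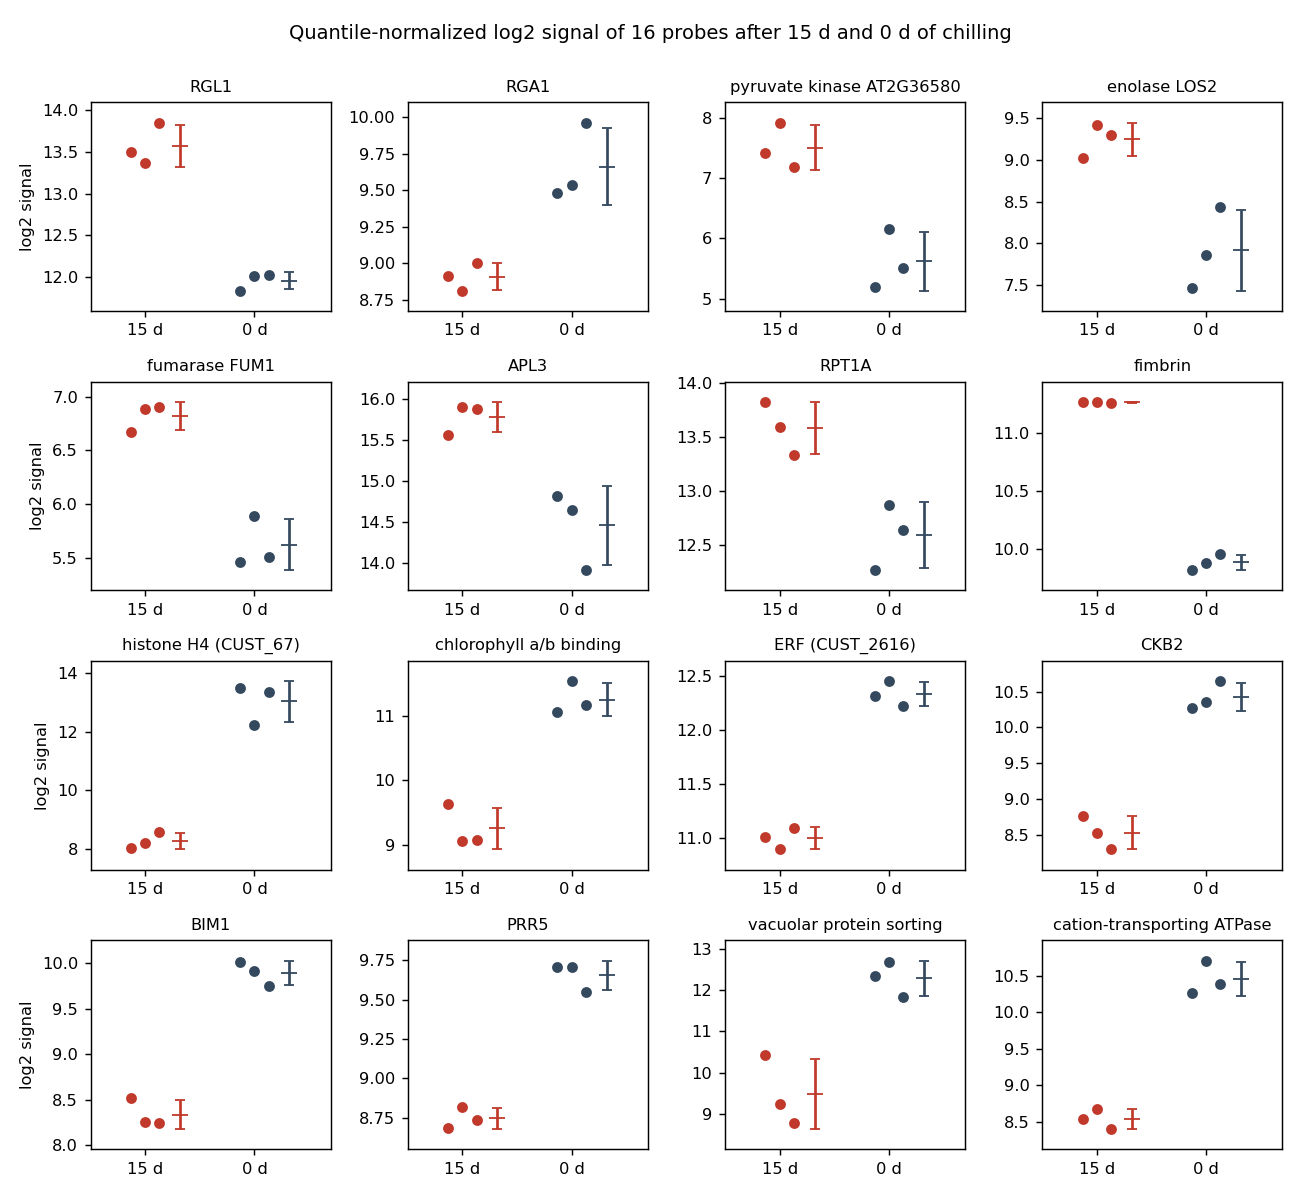
Each panel shows 1 probe, with the log2 signal of the 3 arrays of 15 d (red, left) and the 3 arrays of 0 d (blue-grey, right) as points, and the mean with its SD as a bar beside them. The vertical scale differs between panels, and in all 16 panels the points of the 2 times do not overlap.

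Transport genes changed in both directions. Of 134 membrane transporter probes 12 rose (8.96%) and 6 fell (4.48%), against 3.74% and 3.12% over all probes, with a median of 0.16. An oligopeptide transporter (CUST_9823), which stood outside that list like the proton pump and the cation-transporting ATPase given next, had 10.67, 10.59 and 10.71 at 15 d, against 8.77, 9.22 and 8.72 at 0 d, and rose by 1.75 ± 0.29 (3.37-fold, adjusted p = 0.0092). Its relative OPT3, known in Arabidopsis for moving iron, rose by 0.84 ± 0.19. The nitrate transporter NRT2.3 had 8.47, 8.40 and 9.01 at 15 d, against 7.57, 7.53 and 7.53 at 0 d, a rise of 1.08 ± 0.29.

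The plasma membrane proton pump (CUST_4928), which powers uptake across the membrane, had 15.03, 14.53 and 14.05 at 15 d, against 13.33, 13.37 and 13.20 at 0 d, and rose by 1.24 ± 0.31 (adjusted p = 0.031), but with normexp it was at 0.66 and no longer called (adjusted p = 0.24). NAT7, described as a purine permease, rose by 1.30 ± 0.19 and the amino acid transporter AT1G47670 by 0.86 ± 0.16. On the falling side, a cation-transporting ATPase (CUST_3569) had 8.55, 8.68 and 8.41 at 15 d, against 10.26, 10.71 and 10.39 at 0 d, and fell by 1.91 ± 0.27 (3.75-fold, adjusted p = 0.0068). Its groups were tight and far apart. The Golgi nucleotide-sugar transporter GONST2 fell by 1.54 ± 0.34 and the mitochondrial carrier AT2G30160 by 1.46 ± 0.25.

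Of 29 probes for DNA replication and repair, 4 rose (13.8%, against 3.74% over all probes), 1 fell and 24 did not pass the test. The list median was 0.14, and -0.12 with slide as a block. KU70, which with KU80 binds broken DNA ends, had 7.65, 7.45 and 7.32 at 15 d, against 6.00, 6.57 and 5.93 at 0 d, and rose by 1.31 ± 0.30 (adjusted p = 0.020). Its partner KU80 rose by 0.61 ± 0.13 and RAD23, of excision repair, by 0.84 ± 0.16, whereas TIL1, the catalytic subunit of DNA polymerase epsilon, fell by 1.09 ± 0.24. A probe described as SMC3 (CUST_11082), a ring subunit of cohesin, had 6.35, 6.71 and 6.62 at 15 d, against 4.10, 5.28 and 4.52 at 0 d. It rose by 1.93 ± 0.41 (adjusted p = 0.017) and was well above background on 1 of the 3 arrays of 0 d, so the size of the rise is uncertain. With normexp SMC3 was at 0.81 and no longer called (adjusted p = 0.054 by limma), KU80 at 0.32 and no longer called (adjusted p = 0.096), and KU70 at 0.78 and still called. Among 36 cell cycle and division probes 1 rose (2.78%) and 4 fell (11.1%, against 3.12% over all probes), with a median of -0.05. The rise was CUST_9604, a probe also counted under glycolysis and under starch and sucrose metabolism. Among the falls, CUST_12182 was also counted under DNA replication and repair, and CUST_14819 under ubiquitin ligases and F-box proteins.

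Of the cytoskeleton and its motors, 2 of 21 probes rose (9.52%) and 2 fell (9.52%), against 3.74% and 3.12% over all probes. Fimbrin, which bundles actin filaments, had 11.26, 11.26 and 11.25 at 15 d, against 9.82, 9.88 and 9.96 at 0 d. Its 15 d arrays were nearly identical and far above all arrays of 0 d, and it rose by 1.37 ± 0.17 (2.59-fold, adjusted p = 0.0032). The kinesin described as kif4 rose by 0.84 ± 0.19. A beta-tubulin (CUST_12380) had 6.45, 6.38 and 6.41 at 15 d, against 7.80, 7.58 and 7.67 at 0 d, and fell by 1.27 ± 0.26, and an actin depolymerizing factor fell by 0.60 ± 0.17.

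A pair of genes of translation rose by more than 2-fold. Elongation factor 1-alpha (CUST_18), which brings aminoacyl-tRNA to the ribosome, had 14.02, 14.07 and 13.95 at 15 d, against 12.73, 13.17 and 12.04 at 0 d, and rose by 1.37 ± 0.22 (adjusted p = 0.0088). PAB2, a poly(A)-binding protein, had 15.02, 15.25 and 15.70 at 15 d, against 13.91, 14.11 and 14.29 at 0 d, and rose by 1.22 ± 0.17 (adjusted p = 0.0060). Neither gene's groups overlapped. Ribosomal proteins stayed near the share over all probes, with a median of 0.03. Of 67 probes 2 were higher (2.99%) and 3 lower (4.48%), against 3.74% and 3.12% over all probes.

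Further rises were of scattered function. AT4G38840, a small auxin-up RNA, had 13.91, 13.78 and 13.16 at 15 d, against 12.82, 12.34 and 11.33 at 0 d, and rose by 1.45 ± 0.40 (adjusted p = 0.045). NAC007, a NAC factor, had 11.26, 10.86 and 11.77 at 15 d, against 10.10, 10.29 and 9.36 at 0 d, and rose by 1.38 ± 0.27 (adjusted p = 0.012). BPEp, which limits petal size in Arabidopsis, rose by 1.24 ± 0.23 and AT3G17100 by 1.33 ± 0.26. With normexp BPEp was at 0.44 and no longer called (adjusted p = 0.25 by limma). All arrays of 15 d stood above those of 0 d for these 4 genes.

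A cytochrome P450 (CUST_4263) rose by 1.39 ± 0.24, ABC1, well above background on 1 of 3 arrays of 0 d, by 1.23 ± 0.34 and a probe described only as protein binding (CUST_13876) by 1.34 ± 0.24. AT5G54470, not well above background on any array of 0 d, was 1.64-fold higher at 15 d by the ratio used for GPT2. It was not called with normexp (adjusted p = 0.060 by limma). UDP-glucuronic acid decarboxylase, which makes the xylose donor for cell walls, rose by 1.0 ± 0.21. CSLD3, a cellulose synthase-like enzyme, fell with a log2 fold change of -1.11 ± 0.27 and the xyloglucan galactosyltransferase KATAMARI1 with -0.78 ± 0.20. In the list of 28 cell wall probes 1 rose (3.57%) and 2 fell (7.14%), against 3.74% and 3.12% over all probes. The other 25 did not pass the test, and the list median was -0.07.

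Of 12 photosynthesis probes 4 fell (33.3%, against 3.12% over all probes), 1 rose and 7 did not pass the test, with a median of -0.65. A chlorophyll a/b binding protein of the light-harvesting antenna (CUST_10302) had 9.62, 9.06 and 9.07 at 15 d, against 11.05, 11.53 and 11.17 at 0 d, and fell by 2.0 ± 0.30 (adjusted p = 0.0085). A second probe of this kind (CUST_4274) had 10.20, 9.16 and 8.83 at 15 d, against 11.17, 10.89 and 10.99 at 0 d, and fell by 1.62 ± 0.37 (adjusted p = 0.020). The groups did not overlap for either probe. The small chain of RuBisCO fell by 0.97 ± 0.24 and RuBisCO activase by 0.88 ± 0.22, while the magnesium chelatase subunit chlD rose by 0.61 ± 0.14. The summed linear signal of the 12 probes did not follow this count, with 186200 to 286300 at 15 d, against 210100 to 241200 at 0 d.

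Of 144 transcription factor probes, 4 rose (2.78%), 12 fell (8.33%) and 128 did not pass the test, against 3.74% and 3.12% over all probes, and the list median was -0.01. The ethylene and AP2/ERF factors given next, and BIM1, CKB2 and PRR5 below, stood outside that list. Of 17 ethylene signalling and ERF probes 3 fell (17.6%, against 3.12% over all probes) and none rose, with a median of -0.16. An ethylene-responsive factor (CUST_2616) had 11.01, 10.90 and 11.09 at 15 d, against 12.32, 12.46 and 12.23 at 0 d, and fell by 1.34 ± 0.16 (2.52-fold, adjusted p = 0.0032). An AP2/ERF factor (CUST_15124) had 7.81, 7.59 and 7.73 at 15 d, against 9.76, 9.92 and 9.03 at 0 d, and fell by 1.86 ± 0.37 (adjusted p = 0.013). In both the chilled arrays were tight and below all arrays of 0 d. Another factor (CUST_11272) fell by 0.95 ± 0.18.

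Other regulators fell as well. BIM1, a partner of the brassinosteroid factor BES1 in Arabidopsis, had 8.51, 8.25 and 8.24 at 15 d, against 10.02, 9.91 and 9.76 at 0 d, and fell by 1.56 ± 0.30 (adjusted p = 0.011). CKB2, a regulatory subunit of casein kinase 2, had 8.76, 8.52 and 8.30 at 15 d, against 10.27, 10.36 and 10.64 at 0 d, and fell by 1.90 ± 0.40 (adjusted p = 0.017). PRR5, a pseudo response regulator of the circadian clock, had 8.69, 8.82 and 8.74 at 15 d, against 9.71, 9.71 and 9.55 at 0 d, and fell by 0.91 ± 0.16. No array of 15 d reached the level of any array of 0 d in these genes. The hour of harvest is not given in the sources used here, and its part in the clock gene was not tested. AT5G29000, a MYB-type factor, fell by 1.69 ± 0.36 and MYB73 by 0.96 ± 0.21.

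Of 31 chromatin and DNA methylation probes 3 fell (9.68%, against 3.12% over all probes), none rose and 28 did not pass the test. The falls were an ATP binding protein (CUST_257) by 1.24 ± 0.22, a SET domain protein, of a family that methylates histones, by 1.12 ± 0.30, and a bromodomain protein by 0.60 ± 0.17. Of 32 spliceosome probes 5 fell (15.6%, against 3.12% over all probes), none rose and 27 did not pass the test. One was CBP20, which binds the cap of mRNA, with 5.77, 5.91 and 6.28 at 15 d, against 7.48, 7.09 and 7.54 at 0 d, a fall of 1.38 ± 0.27 (adjusted p = 0.012) that was -0.76 with normexp and still called. Adenosylhomocysteinase, which clears the by-product of methylation reactions, fell by 1.61 ± 0.35.

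Of 17 core histone probes 1 was called (5.88%, against 6.86% over all probes), and it was the largest fall of all called probes. Histone H4 (CUST_67) had 8.04, 8.19 and 8.57 at 15 d, against 13.50, 12.24 and 13.36 at 0 d, and fell by 4.77 ± 0.83 (27.2-fold, adjusted p = 0.0092). The groups lay more than 3 log2 units apart. The other 16 core histone probes did not pass the test, among them a pair annotated as histone H4. CUST_13085 had 16.53, 14.73 and 17.0 at 15 d, against 15.54, 16.04 and 17.45 at 0 d, and CUST_6113 had 17.77, 17.85 and 18.12 at 15 d, against 17.33, 16.66 and 17.68 at 0 d. The H4 fall thus belonged to 1 of 3 H4 probes and not to the class, whose median was 0.06.

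Vacuole and lipid signalling genes were also among the falls. A vacuolar protein sorting protein (CUST_5789) had 10.42, 9.24 and 8.79 at 15 d, against 12.34, 12.68 and 11.82 at 0 d, and fell by 2.8 ± 0.48 (6.95-fold, adjusted p = 0.0092). VAM3, a syntaxin of the vacuole, had 4.87, 4.22 and 5.24 at 15 d, against 6.21, 6.11 and 6.45 at 0 d, and fell by 1.48 ± 0.27. VAM3 was well above background on 1 of 3 arrays of 15 d, so its lower level was close to the limit of measurement. DGK2, a diacylglycerol kinase, fell by 1.54 ± 0.32 and the phospholipase D PLDDELTA by 0.97 ± 0.19.

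The remaining large falls were of scattered function. They were a DC1 domain protein (CUST_2712) with -2.09 ± 0.41, the germin-like AT5G38940 with -1.71 ± 0.29, a protein called early-responsive to dehydration (CUST_7540) with -1.65 ± 0.32, an n-rich protein (CUST_13709) with -1.53 ± 0.43, and a probe described only as catalytic (CUST_10189) with -2.30 ± 0.65. The DC1 domain probe was well above background on 1 of 3 arrays of 15 d.

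Of 10 cold regulators 2 rose (20%, against 3.74% over all probes), LOS2 given above and a calmodulin-binding transcription activator. The activator, the kind of factor that switches on CBF genes, rose by 0.86 ± 0.20. It was well above background on 1 of 3 arrays of 0 d. The CBF4 probes, for a factor of cold acclimation, did not pass the test. CUST_2102 had 6.22, 6.4 and 7.32 at 15 d, against 8.18, 8.22 and 8.68 at 0 d, a difference of -1.71 ± 0.51 (adjusted p = 0.057). This probe was called with normexp, at -1.23 (adjusted p = 0.043 by limma). CUST_11130 differed by -0.81 ± 0.55 (adjusted p = 0.41). Of 19 heat shock proteins and chaperones 1 was called (5.26%, against 6.86% over all probes), the HSP90 HSP81-3, with a fall of 0.62 ± 0.15. In the phenylpropanoid list, 0 of 7 probes were called (0%, against 6.86% over all probes).

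A pair of probes outside the named groups had the highest fitted log2 fold changes of all called probes and were picked after their values were seen. CUST_3694, described as a predicted protein, read 13.89, 13.44 and 14.96 at 15 d, against 2.99, 2.90 and 11.51 at 0 d, a log2 fold change of 8.30 ± 1.62 (adjusted p = 0.012). The third array of 0 d was well above background, whereas the other two were not, so the mean of 0 d described none of its arrays. Set against the lowest signal above background on those 2 arrays, without replicate 3 of 0 d, the 15 d mean was 2076-fold higher. This ratio is no lower bound, since GPT2 was brighter than that signal on the same arrays without being well above background. Replicate 3 of 0 d read 11.51, against 13.44 to 14.96 at 15 d, so the size of the rise is uncertain. The fitted value rests on signals below the limit of measurement. CUST_9263, a hypothetical protein, read 12.64, 12.38 and 13.07 at 15 d, against 6.56, 7.23 and 8.72 at 0 d, a log2 fold change of 5.19 ± 1.34 (adjusted p = 0.034). Its 15 d arrays agreed closely, while at 12 d it read 13.35, 8.15 and 7.77.

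The steps next to this interval had few or no calls. Between 15 d and 12 d, 0 probes were called by limma (0%), with 1205 at an unadjusted p under 0.05. The methods' ANOVA with Tukey's test, rerun here, gave 141, which is not the study's own count. The study placed the full release from endo-dormancy at 18 d. Between 18 d and 15 d, all on slide 2, 3 probes were called (0.0201%), all lower at 18 d, and none of them has a named protein. The unadjusted p was under 0.05 for 1223 probes, and the rerun of Tukey's test gave 250, again not the study's own count. Between 12 d and 0 d 468 probes (3.13%) were called, and between 6 d and 0 d, all on slide 1, 12 probes (0.0802%). These counts share arrays with 15 d against 0 d, so they are set side by side and not compared by a test.

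A few genes, picked after their values were seen, show how the levels ran on slide 1, the slide of the 0 d arrays. RGL1 read 12.61, 13.19 and 13.18 at 6 d, all above its 0 d arrays, and 13.71 and 13.81 on the 12 d arrays of slide 1. The cation-transporting ATPase read 9.21, 8.05 and 8.30 at 6 d, below all of its 0 d arrays. Fimbrin read 10.88, 11.38 and 11.19 at 6 d, and BIM1 9.25, 8.39 and 8.76, again outside the range of 0 d.

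KU70 read 6.24, 6.66 and 6.90 at 6 d, which overlapped its 0 d arrays, and 6.82 and 5.92 on the 12 d arrays of slide 1, while its 12 d array on slide 2 read 7.32, the same as the lowest array of 15 d. With slide as a block its difference was 0.35 ± 0.47, against 1.31 ± 0.30 without. For pyruvate kinase AT2G36580 the 12 d arrays of slide 1 read 5.92 and 6.91 and the one on slide 2 read 7.36, and its blocked difference was 0.94 ± 0.70. Between 15 d and 0 d slide and chilling cannot be told apart for any of these genes. Histone H4 (CUST_67) read 10.90, 10.58 and 10.38 at 6 d and 12.78 on the 12 d array of slide 2, and had a blocked difference of -6.57 ± 1.33.

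**Figure D4:**
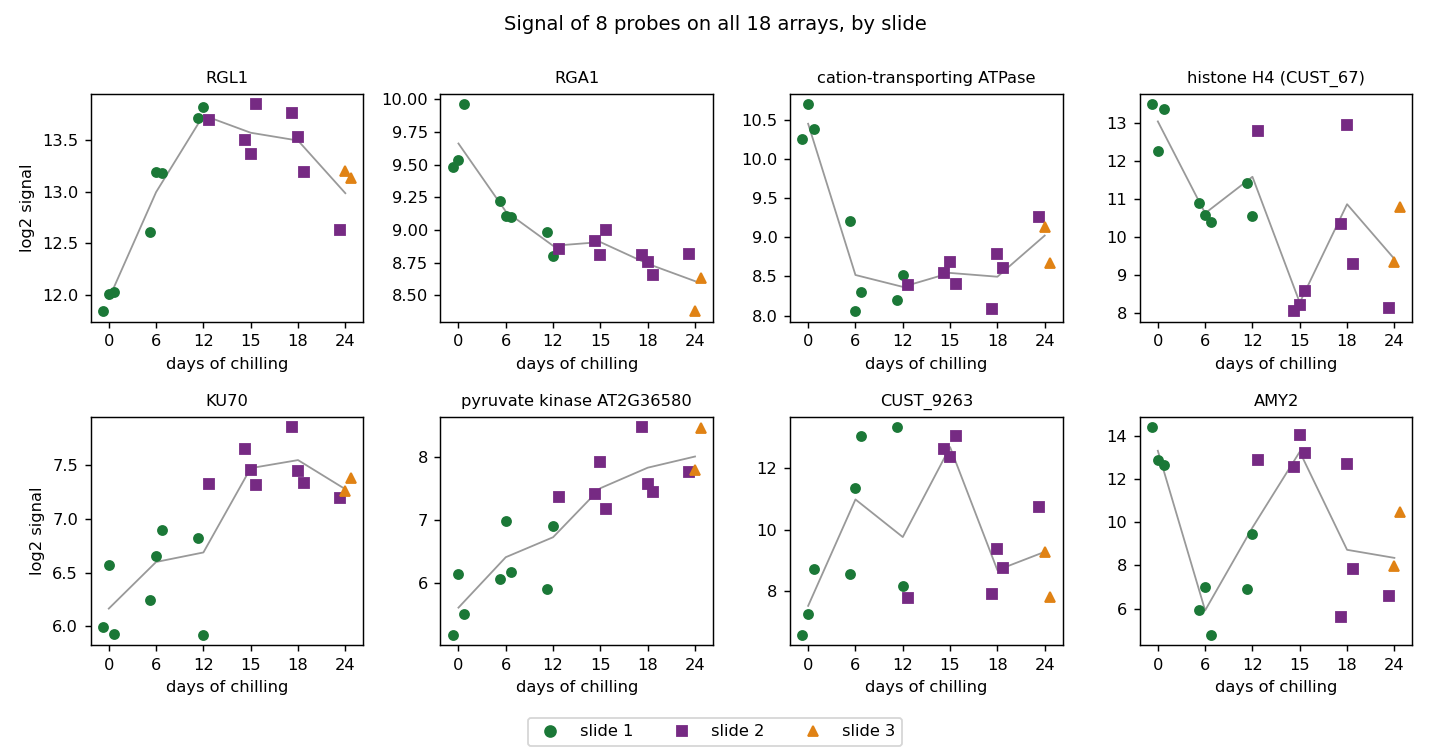
The log2 signal of 8 probes is plotted against days of chilling for all 18 arrays, with the slide as symbol and colour and the mean of each time as a grey line. RGL1, RGA1 and the cation-transporting ATPase had all 6 d arrays outside the range of their 0 d arrays on slide 1, KU70 had not, and AMY2 was low at 6 d but as high at 15 d as at 0 d.

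**Figure D5:**
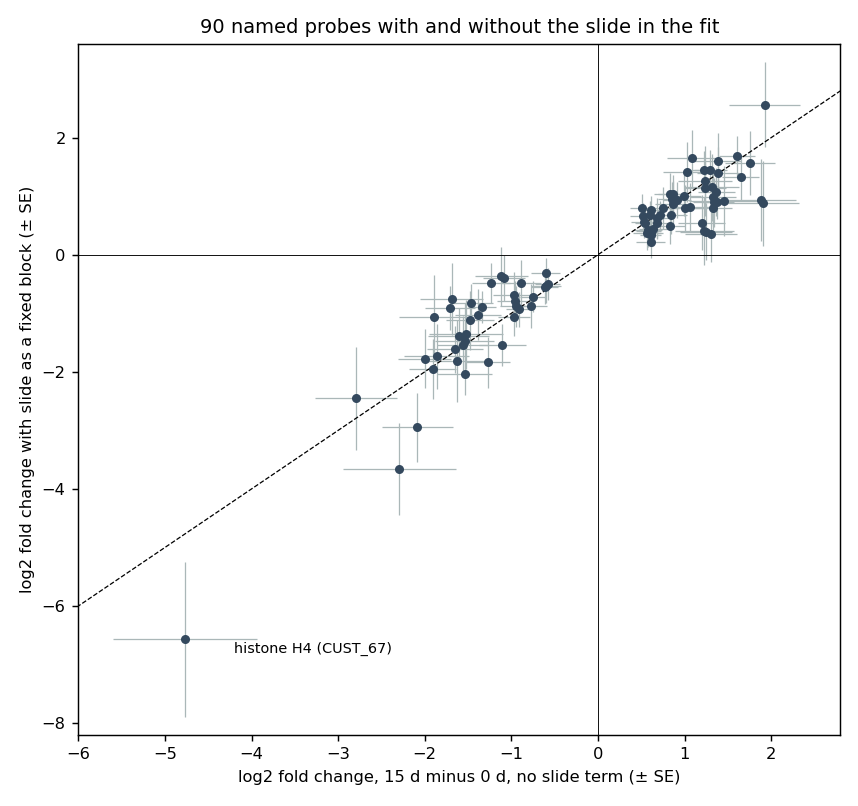
For 90 called probes named in the text (without CUST_3694 and CUST_9263) the log2 fold change of 15 d minus 0 d with slide as a fixed block is plotted against that without it, with bars of ± SE and a dashed line of equality. All 90 kept their sign, none passed the threshold with the block, and the vertical bars are longer than the horizontal ones.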

How the data were processed

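Per the file headers, the deposited scanner files hold Feature Extraction 10.5.1.1 values, of which the processed intensity of each spot, with background subtracted and spatial trend removed, was used. One array of 12 d (replicate 2) was not multiplicatively detrended. The deposited log2 value table is quantile-normalized and served as an alternative. Control spots (536 of 15715) and spots marked as outliers were left out, 4 to 33 probes for each of the 6 arrays, spots of a probe were averaged, and log2 intensity was quantile-normalized. limma 3.58.1 in R (version 4.3.3) fitted 1 mean for each of 6 times over 18 arrays. The contrast of 15 d minus 0 d was tested with Benjamini-Hochberg adjustment at 0.05. Code was tested on simulated data. The precision is set by 3 pools for each time. Gene names came from the study's tables as held here in part (1259 probes named). The authors' columns of group means and p-values in them were not used. Where symbol and description disagreed, the description was used. Named were the probes of the study's gibberellin and PCR tables, the 20 largest rises and 20 largest falls among called, named, detected and non-overlapping probes, and called members of the gene lists. Members and lists were chosen with earlier results of these data known. Other scalings, background corrections, filters, blocks, prior variances and arrays left out in turn were tried. The labels do not say whether same-numbered replicates belong together, and the main fit did not pair them. Same-numbered replicates of 15 d and 0 d had deviations that correlated at 0.01, -0.08 and 0.21. Correlations over 3 pairs cannot settle whether the numbers pair samples. Probe sequences were not used here.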

Additional observations from a re-analysis of the deposited data

How the results depend on the processing

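The count of 1026 probes stayed within 1.5 times under 75th percentile scaling (821), the deposited value table (993), normexp (1106) and outlier spots kept (997). The same held for the filter on dim probes (1175) and a trended robust prior (1184). It held for the methods' ANOVA with Tukey's test as rerun here (1308, not the study's own count). Without replicate 2 of 12 d, a setting chosen after seeing the data, the count was 1361, also within that range. It moved to 198 without normalization between arrays, 549 with slide as a random block, 124 in the 6 arrays alone (30 higher and 94 lower), 416 with a 2-fold minimum (182 higher and 234 lower), 3525 at an unadjusted p, and 578 by ANOVA with Benjamini-Hochberg adjustment. Leaving out 1 array gave 187 to 733. Slide as a fixed block left 2, and 10 when replicate 2 of 12 d was also left out. The causes were not tested. The replicate block gave 803, and 18 of the 92 named calls were lost with it. Of these 92, none changed sign under any alternative, and 9 stayed called under all 17 that had no fixed slide block, RGL1, fimbrin and histone H4 (CUST_67) among them. Of 15 named probes without a call, 3 were called with normexp (RGA2, AGL20 and CBF4 CUST_2102), and 1 or 2 in some other settings. Among the same 15, CUST_13085 turned to 0.27 with slide as a block and 0.53 with replicate 2 of 12 d also out. It lay between -0.72 and 0.42 without 1 array, and AMY2 between -0.43 and 0.50 without 1 array. Dim probes limit the measurement, since 609 probes were not well above background on any of the 6 arrays.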
